A study of Mus musculus with 6 samples.

Results

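The genes described are 34 named motile cilia and intraflagellar transport genes: 2 RFX factors, 19 genes of the axoneme and of motile cilia, and 13 of transport and the ciliary membrane. Members were found by their gene symbol in the array annotation, and a gene with several probe sets was represented by the one with the highest mean log2 signal over the 6 arrays. This gave 33 measured members, from 55 probe sets, of 18193 genes in all. Arl13b, a small GTPase of the ciliary membrane, had no probe set under its symbol in the annotation table used and was not analysed here, which left 12 transport members.

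Cilia are hair-like projections built on a core of microtubules, the axoneme. In the node of the early mouse embryo they beat and drive a leftward flow of fluid that sets the left-right axis. Motile cilia need dynein motor arms and, in most tissues, radial spokes, a ruler that spaces arms and spokes, and a central pair. All cilia, moving or not, are built by intraflagellar transport, in which kinesin motors carry protein trains outward and dynein brings them back. Forkhead factor FOXJ1 and the RFX factors switch on many of these genes, the RFX factors by binding a promoter element named the X-box.

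The tissue was dissected mouse node and streak, taken at embryonic day 7.75 to 8, with 0 to 2 somites, on a mixed C57BL/6 and 129/Sv background. The groups were Wnt3a null and wild-type embryos, compared to find genes that respond to Wnt3a, a Wnt ligand made there. Each of 3 arrays per genotype held amplified RNA pooled from 3 stage-matched embryos, 9 embryos per genotype. The labels call the pools biological replicates 1, 2 and 3 of each genotype. They do not say what pools of one number share. The p-values for genotype below set the difference between genotypes against the spread between these pools. Where replicate number is used as a block, the part of that spread shared by pools of one number is taken out.

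Wnt3a itself had signals of 961, 761 and 1009 in null pools 1 to 3 and 864, 1058 and 996 in wild-type pools 1 to 3. The groups overlapped (log2 difference -0.10; limma, adjusted p = 1.00). The allele is not described in the labels, so whether this probe set lies in an altered stretch is not known, and its signal does not check the genotype labels.

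Values are signals, the deposited linear intensities per probe set, for which only differences within a probe set can be read as differences in RNA. Median signals per array were 73.7 to 86.4, and the median gene had a mean signal of 164 (here and wherever a gene is set against the median gene, the mean of log2 signals turned back to a signal). Of markers of the labelled tissue, the streak marker Nkx1-2 had signals of 11376 to 17845. The node and notochord markers Shh and Foxa2 had 234 to 1517 and 302 to 598. Some other node and notochord markers had low signals, such as Chrd (34.2 to 250) and Nog (3.31 to 31.6). These signals do not measure the amount of node tissue. Visceral endoderm RNA was also present, with Ttr at 13561 to 26487. Gapdh probe sets at the 3' and 5' ends, which track RNA integrity, had a 3'/5' ratio of 2.09 to 2.39 for null pools and of 2.51 to 3.00 for wild type, without overlap. The same ratio for beta-actin was 2.38 to 3.83 and 2.68 to 3.69. The part of RNA integrity in the differences below was not tested.

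Many promoters of the members held a sequence that the choice of genes did not use. RefSeq promoters of assembly GRCm38.p6, 250 bases before to 50 after the annotated start, were at hand for 28 of the 34 members. The X-box half-site GTTGCC, searched on both strands (GGCAAC on the other), was found in 18 of these 28 (64.3%), against 14.7% of the 14452 genes on the array with a promoter and 14.1% of 27025 RefSeq genes. It was in 9 of 16 axonemal promoters, in 7 of 10 transport promoters and in those of both RFX factors. In the lists of other cilia genes described below, its share ran from 33.3% (BBSome) to 64.3% (transition zone). The exception was the flow-sensing list, with 0 of 5. The half-site was thus not particular to the members. This half-site was added after the data had been seen. A full X-box, written as GTNNCC, 0 to 3 bases and GGNAAC on either strand, was in 3 of 28 (10.7%), against 3.31% of genes on the array. It contains the half-site where its letters allow. The forkhead site TGTTTAC was in 2 of 28 (7.14%, Ak7 and Mlf1), against 3.40%, and the LEF/TCF site CTTTGAT, named for the nuclear partners of Wnt signalling, in 2 of 28 (7.14%, Dnah5 and Ift57), against 3.46%. These are matches of letters, with no measure of binding.

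The 3 members with a full X-box are shown first, with the match in capitals and each window read 5′ to 3′ on the strand of the gene. Pifo lies at chr3:106001498-106001529 (minus strand), Ift57, with 2 matches, at chr16:49699195-49699258 (plus strand) and Tekt4 at chr17:25471418-25471455 (plus strand), all in GRCm38.p6.
Pifo: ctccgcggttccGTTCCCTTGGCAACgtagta
Ift57: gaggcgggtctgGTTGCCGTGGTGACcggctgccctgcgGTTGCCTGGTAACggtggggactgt
Tekt4: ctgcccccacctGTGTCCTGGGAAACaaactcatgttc
The Pifo match ends 7 bases before the annotated start, and the Tekt4 match begins 160 bases before it.

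Half-site windows of 5 of the 18 members follow as examples from the RFX, axonemal and transport groups, with the half-site in capitals. Rfx2 is at chr17:56831108-56831135 (minus), Ccdc113 at chr8:95534083-95534110 (plus), Tekt1 at chr11:72361901-72361928 (minus), Mlf1 at chr3:67373981-67374008 (plus) and Kif3a at chr11:53567260-53567287 (plus).
Rfx2: gcttggtaaccGTTGCCgggcgcaacgc
Ccdc113: tcagttgtctaGGCAACgcgcctcaggg
Tekt1: cttctaactagGGCAACgttgcgtccgt
Mlf1: tgtttacagagGTTGCCatagcagccga
Kif3a: accccgcaggcGTTGCCccagtctagcg
The half-site began 6 bases before the annotated start in Ccdc113 and 116 bases before it in Rfx2. Over the 18 members the first half-site lay between 181 bases before and 31 bases after the start.

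No member passed the test between genotypes. In limma's test with Benjamini-Hochberg adjustment over 18193 genes, 0 of 33 members had an adjusted p under 0.05, as did 0 genes in all (0%). At an unadjusted p under 0.05 there were 2 members, Spag17 and Tekt4, or 2 of 33 against 5.17% of all genes. Both were higher in null, where 3.02% of genes were higher and 2.14% lower at this level. With replicate number as the block, limma also called 0 members and 0 genes, and there 1 member, Ccdc113, had an unadjusted p under 0.05, against 6.30% of genes. With limma's trend and robust options 0 members were called, both without the block (1 gene called in all, 0.0055%) and with it (11 genes called, 0.0605%). At an unadjusted p under 0.05 these fits had 2 members each, Spag17 and Tekt4 without the block, against 4.83% of genes, and Spag17 and Ift52 with it, against 8.79%. By mean log2 signal 14 members were lower and 19 higher in null, and over all genes 50.8% were higher. The 3 null arrays did not overlap the 3 wild-type arrays for 3 members (Spag17, Tekt4 and Ift52), and the same held for 10.1% of all genes, 5.56% higher and 4.56% lower in null. All 3 replicate numbers differed in 1 direction for 9 members, 4 lower and 5 higher, against 30.2% of genes, 14.7% lower and 15.5% higher. These shares are close to those of all genes.

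**Figure D1:**
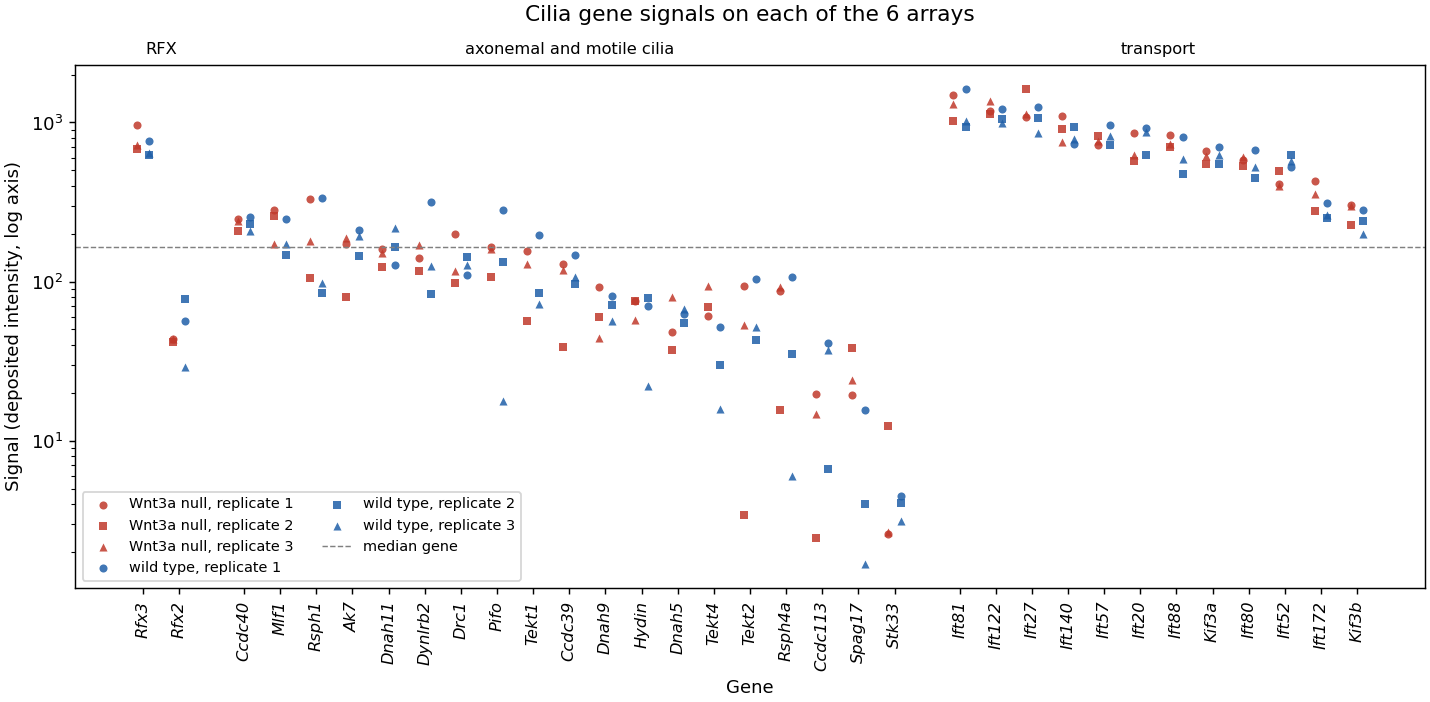
Signal (deposited intensity, log axis) of each measured member on each of the 6 arrays, ordered within each group by mean log2 signal; red is Wnt3a null, blue is wild type, the marker shape gives the replicate number and the dashed line is the median gene. Red and blue points overlap for all members except Tekt4, Spag17 and Ift52, and the axonemal members spread more widely between pools than the transport members.

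Of the RFX factors, Rfx3 was the more brightly measured. Its signal was 958, 680 and 727 in null pools 1 to 3 and 760, 622 and 644 in wild-type pools 1 to 3. The null value was above the wild-type value in each replicate number, but the groups overlapped: the mean was 788 ± 149 in null and 676 ± 74.1 in wild type (SD, n = 3 each). The log2 difference, null minus wild type, was 0.21 with a 95% interval from -0.30 to 0.73 (limma, adjusted p = 1.00). A second, dimmer Rfx3 probe set, at 38.2 to 85.9, had a log2 difference of -0.36. Rfx2 had signals of 43.3, 41.6 and 43.8 in null and 56.8, 78.0 and 29.0 in wild type. The null pools lay inside the wild-type range, and the log2 difference was -0.24 (interval -1.19 to 0.72). Its 3 other probe sets had signals of 2.59 to 82.0 and log2 differences of 0.14 to 0.98, the opposite sign, with wide intervals.

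Axonemal and motile cilia members showed no common direction. Of 19, 9 were lower and 10 higher in null, and the median log2 difference was 0.01, against 0.00 over all genes. By replicate number the median was -0.16, -0.32 and 0.21. The 95% intervals, which are not adjusted for the number of genes, had a median half-width of 1.30 log2 units over these members. A difference smaller than a member's own half-width leaves 0 inside its interval. The adjusted threshold asks for more, so larger changes could also have been missed. Without wild-type replicate 1 the median was 0.31, and with each of the other 5 arrays left out it lay between -0.16 and 0.20. Only 2 of the 19, Ccdc40 and Mlf1, had a mean log2 signal above that of the median gene, and dim probe sets vary more on the log2 scale.

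The outer dynein arm heavy chains are the motors that make cilia beat. Dnah5 had 55.3 ± 22.5 in null and 61.5 ± 6.09 in wild type, Dnah9 had 65.3 ± 24.2 and 69.5 ± 12.5, and Dnah11 had 145 ± 18.3 and 170 ± 45.2 (SD, n = 3 each). Their log2 differences were -0.22, -0.14 and -0.21. All 3 genes were thus slightly lower in mean, by less than their spread between pools. Dynlrb2, a dynein light chain that also serves transport, stood at 142 ± 26.6 and 175 ± 125, with wild-type pool 1 at 317 above all others.

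The brightest axonemal member, Ccdc40, encodes with Ccdc39 the ruler that sets the spacing of dynein arms and spokes. Ccdc40 had signals of 248, 208 and 240 in null and 255, 229 and 208 in wild type. The genotypes covered the same range, and the log2 difference of 0.01 had the narrowest interval of the axonemal members, from -0.42 to 0.44. Its partner Ccdc39 was more variable, with 95.6 ± 49.6 in null and 117 ± 26.9 in wild type, and null pool 2 the lowest at 38.7. Drc1, of the nexin link between microtubule doublets, had 138 ± 53.4 and 126 ± 16.8.

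Radial spoke and central pair genes varied strongly between pools of one genotype. Rsph1, a spoke head gene, had signals of 329, 106 and 180 in null and 333, 84.8 and 98.0 in wild type. Pool 1 was the highest of its genotype on both sides and pool 2 the lowest, and the 2 genotypes covered nearly the same range (log2 difference 0.39, interval -1.31 to 2.09). Rsph4a, another spoke head gene, ranged from 6.02 to 108 over the 6 arrays, and Hydin, a central pair gene, from 22.0 to 79.2, both lowest in wild-type pool 3 in these probe sets.

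Spag17, a central pair gene, had the largest difference of any member. Its signals were 19.3, 38.4 and 24.1 in null and 15.6, 4.01 and 1.67 in wild type. Every null pool was above every wild-type pool, but null pool 1 and wild-type pool 1 were close, and all values lay far below the median gene. The log2 difference was 2.47 ± 0.84 (SE), with an unadjusted p of 0.0286 and an adjusted p of 0.943 (limma). The second Spag17 probe set went the other way, with signals of 2.83 to 30.1 and a log2 difference of -1.20. The 2 probe sets of this gene therefore disagree in sign at signals where the arrays measure poorly.

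Tektins are filament proteins inside the axonemal microtubules. Tekt4 had signals of 60.7, 68.8 and 93.4 in null and 52.1, 30.0 and 15.8 in wild type. The groups did not overlap, and the gap between the lowest null and the highest wild-type pool was small beside the spread within wild type. The log2 difference was 1.33 ± 0.47 (SE; limma, unadjusted p = 0.0333, adjusted p = 0.950). Tekt1 had 114 ± 51.6 in null and 118 ± 69.0 in wild type. Tekt2 had 50.1 ± 45.1 and 66.2 ± 33.1, with null pool 2 at 3.40 and the other 5 arrays at 42.9 to 104.

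Ccdc113 encodes a coiled-coil protein needed to build cilia. Its signals were 19.7, 2.46 and 14.7 in null and 40.9, 6.64 and 37.1 in wild type. Both genotypes were lowest in pool 2, and within each replicate number null was below wild type by a similar amount, with log2 differences of -1.06, -1.43 and -1.33. The overall log2 difference of -1.27 had an interval from -3.97 to 1.43 without the block (limma, unadjusted p = 0.287). With the replicate block the unadjusted p was 0.00272 and the adjusted p 0.682, and with the block plus trend and robust options the unadjusted p was 0.190. These signals were also well below the median gene, and the gene had 1 probe set.

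The remaining motile cilia genes overlapped between genotypes. Mlf1, a gene active in ciliated cells, had 280, 259 and 171 in null and 246, 147 and 172 in wild type, a log2 difference of 0.33 (interval -0.42 to 1.08). Ak7, an adenylate kinase of motile cilia, had 171, 80.2 and 189 in null and 212, 145 and 192 in wild type. Null was lower in each replicate number, with a log2 difference of only -0.03 in number 3. Pifo, a ciliary gene of the node, had 144 ± 32.1 and 144 ± 132, with wild-type pool 3 at 17.7 against 107 to 282 elsewhere. Stk33, a kinase gene, stood at 2.60 to 12.4, close to the lowest signals of the arrays.

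Transport members were measured with much smaller spread and also did not separate the genotypes. Of 12, 4 were lower and 8 higher in null, with a median log2 difference of 0.14 and medians of -0.10, 0.11 and 0.27 by replicate number. All 12 had a mean log2 signal above the median gene, and their log2 differences ran from -0.41 to 0.35. The median half-width of their intervals was 0.54 log2 units. Without wild-type replicate 1 the median was 0.25, and without wild-type replicate 2 it was 0.04.

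**Figure D2:**
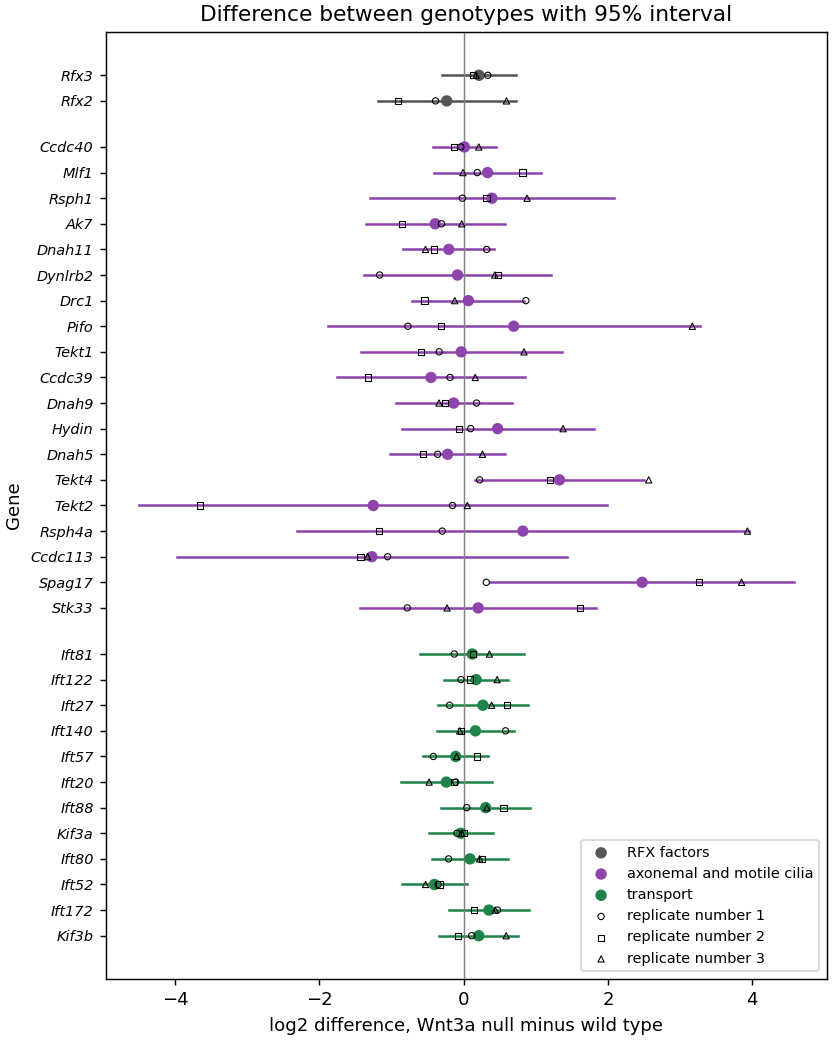
Log2 difference of each measured member, Wnt3a null minus wild type (filled point), with the 95% interval of the limma fit without a block (line) and the difference within each replicate number (open symbols), RFX factors, axonemal and transport members apart. All 12 transport intervals include 0 and lie within about 1 log2 unit of it, whereas axonemal intervals are wider and only those of Tekt4 and Spag17 stop short of 0.

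Ift52, a core protein of the outbound transport complex (complex B), came nearest to a difference in this group. Its signals were 408, 498 and 397 in null and 522, 629 and 573 in wild type. The groups did not overlap, and null was lower in each replicate number, with log2 differences of -0.36, -0.34 and -0.53. The mean was 435 ± 55.5 in null and 575 ± 53.2 in wild type (SD, n = 3 each), 1.33-fold lower, with a log2 difference of -0.41 (interval -0.86 to 0.04). It did not pass the test (limma, unadjusted p = 0.0680, adjusted p = 0.975; with the replicate block, adjusted p = 0.789), and 4.56% of all genes were lower in null without overlap.

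The other complex B members had differences of both signs. Ift20 was lower in null in each replicate number, with log2 differences of -0.11, -0.13 and -0.48, but its groups overlapped. Ift81 had 1488, 1020 and 1311 in null and 1629, 935 and 1024 in wild type, with the highest signal in pool 1 of each genotype. Ift27 had 1084, 1634 and 1123 in null and 1243, 1074 and 859 in wild type, and all 3 of its probe sets had positive log2 differences, from 0.10 to 0.26. The chosen probe sets of Ift27, Ift81 and Ift122 carry a suffix that Affymetrix gives to probes that can match further transcripts. Ift20 stood at -0.24, Ift57 at -0.11, Ift80 at 0.09, Ift88 at 0.30 and Ift172 at 0.35, each a log2 difference smaller than its interval's half-width. Ift88, whose loss abolishes nodal cilia in mice, had 755 ± 70.9 in null and 624 ± 170 in wild type.

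Complex A, which carries cargo back, was represented by Ift122 and Ift140. Ift122 had 1187, 1122 and 1361 in null and 1219, 1054 and 988 in wild type, a log2 difference of 0.17. Ift140 had 1101, 908 and 752 in null and 737, 931 and 782 in wild type, a log2 difference of 0.16. Both overlapped between genotypes. A second Ift122 probe set, at 95.3 to 155, had no overlap, with every null pool higher, at a log2 difference of 0.39.

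The kinesin motor genes Kif3a and Kif3b carry the outbound trains. Kif3a had 608 ± 54.2 in null and 626 ± 76.7 in wild type (SD, n = 3 each), and its 4 probe sets had log2 differences of -0.07 to 0.01. Kif3b had 276 ± 42.5 and 240 ± 41.3, with 4 probe sets at log2 differences of -0.26 to 0.47. The interval of the chosen Kif3a probe set ran from -0.49 to 0.41.

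The axonemal members spread more widely between pools of one genotype than the transport members. The spread within a genotype had a median SD of 0.72 log2 units over the axonemal and 0.24 over the transport members, against 0.39 over all genes. For 29 of 33 members the largest difference between means of replicate numbers exceeded the difference between genotypes, close to the 80.2% of all genes; a range over 3 means of 2 arrays exceeds a single difference of 2 means for most genes by its construction. Signal moves with the contrast in spread, since all genes at or below the median signal had a median SD of 0.87 and those above it 0.23. In bins of 1 log2 unit of signal, 12 of 19 axonemal members exceeded the median SD of all genes in their bin, and 8 exceeded the upper quartile: Tekt1, Tekt2, Ccdc39, Rsph1, Rsph4a, Pifo, Ak7 and Dynlrb2. Of the transport members 4 of 12 exceeded the median and 2 the upper quartile, Ift27 and Ift81.

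**Figure D3:**
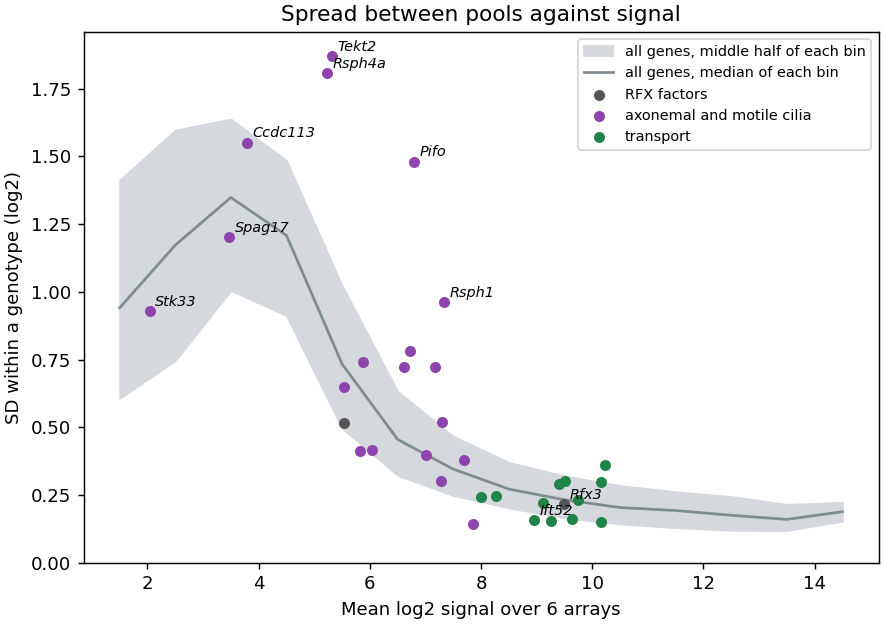
SD of log2 signal within a genotype (pooled over both genotypes) against mean log2 signal; the grey line and band give the median and the interquartile range of all genes in bins of 1 log2 unit, and points are members. Axonemal members such as Tekt2, Rsph4a, Pifo and Rsph1 lie above the band, and the transport members lie in or near it.

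Pool 2 was often the lowest pool of its genotype, more often in null than in wild type. It was the lowest null pool for 23 of 33 members, 13 of them axonemal. In wild type, pool 2 was lowest for 16 members and pool 3 for 13. Of the axonemal members, 8 were lowest in wild-type pool 2 and 9 in wild-type pool 3. For 14 of 33 members, pool 2 was lowest in both genotypes, namely 7 of 19 axonemal, 6 of 12 transport and 1 of 2 RFX members, against 15.9% of all genes. That share was 10.6% of genes at or below the median signal, where most axonemal members lay. It was 21.1% of genes above the median signal, where all transport members lay. Pool 1 was the lowest in both genotypes for 0 members, against 18.3% of genes. The mean deviation of the axonemal members from their own means was 0.42, -0.45 and 0.24 log2 units in null pools 1 to 3 and 0.59, -0.25 and -0.56 in wild-type pools 1 to 3. The low value of wild-type pool 3 came with Spag17, Rsph4a and Pifo, all far lower there than in wild-type pool 1. For transport members the same values stayed between -0.16 and 0.16. A moderated F test of the replicate number, added after the data had been seen, called 0 of 33 members (limma, adjusted p under 0.05), as it did 0 genes (0%). At an unadjusted p under 0.05 it had 2 members, Ccdc113 and Rsph1, against 8.13% of genes. With trend and robust options it called 1 member, Rsph1 (adjusted p = 0.0392), against 2.47% of genes.

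Several node genes were also lowest in pool 2. FOXJ1 is the main switch for motile cilia, and Foxj1 had signals of 123, 15.4 and 74.1 in null and 176, 41.0 and 80.1 in wild type. Pool 2 was the lowest and pool 1 the highest of each genotype, the order also seen for Rsph1. The log2 difference between genotypes was -0.68 with an interval from -3.01 to 1.65, and null was lower in each replicate number (limma, adjusted p = 1.00). Dand5, an antagonist of Nodal made beside the node, had 70.0, 4.81 and 62.4 in null and 107, 9.08 and 130 in wild type, again lowest in pool 2. Of 7 measured node and notochord markers, 5 were lowest in pool 2 in both genotypes, and these include Foxj1 and Dand5. The mean deviation of the 7 markers was 0.60, -1.25 and 0.39 log2 units in null and 0.41, -0.69 and 0.54 in wild-type pools 1 to 3. In wild-type pool 3 they were thus high where the axonemal members were lowest (-0.56), and the markers Foxa2 and Nog were not lowest in pool 2 in both genotypes. The defining marker Noto had no probe set under its symbol and was not analysed here. The listed markers Gdf1 and T were not among the measured genes either, and T was also listed for the primitive streak. In pooled tissue, fewer node cells and less RNA per node cell cannot be told apart, and the part of node content in the spread of the cilia genes was not tested.

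**Figure D4:**
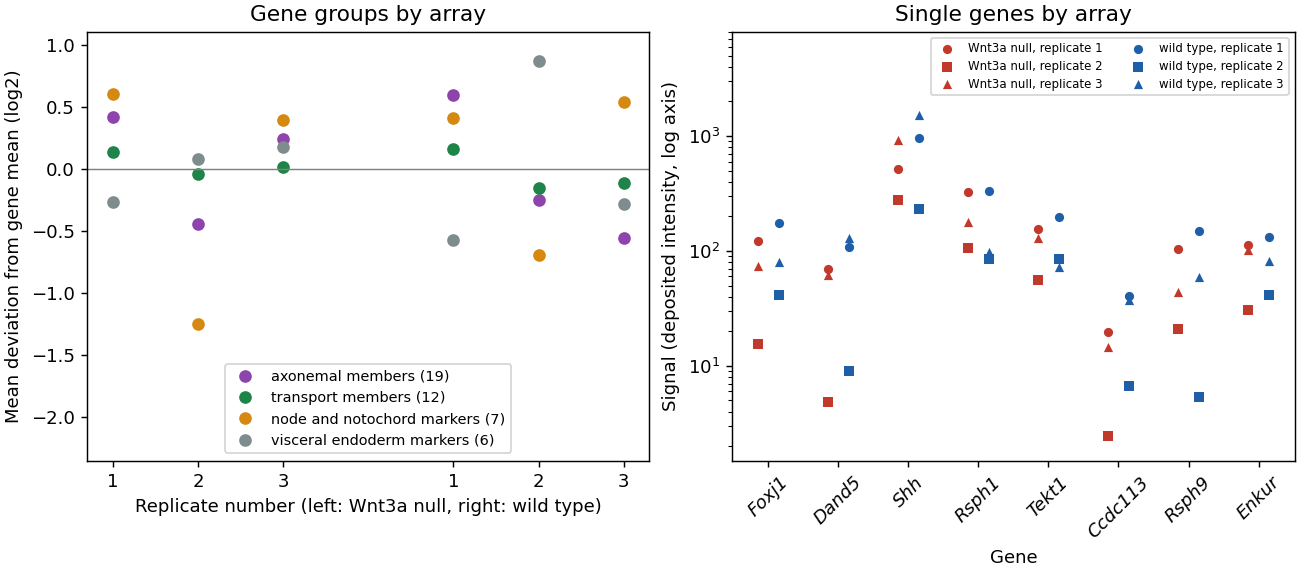
Left, mean deviation (log2) from each gene's mean over 6 arrays, for the axonemal members, the transport members, the node and notochord markers and the visceral endoderm markers, by array; right, signals (log axis) of single genes, with red for Wnt3a null, blue for wild type and marker shape for the replicate number. In both genotypes the node markers are lowest in pool 2 (-1.25 and -0.69), and Foxj1, Dand5, Shh, Ccdc113, Rsph9 and Enkur have their lowest signal in pool 2 of each genotype.

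Visceral endoderm, primitive streak and cardiac and lateral mesoderm markers had 0 of 6, 0 of 10 and 0 of 8 lowest in pool 2 in both genotypes. Of neural plate markers 3 of 8 were lowest there in both, and of definitive endoderm markers 2 of 6, against 15.9% of all genes. The low pool 2 was thus not particular to node and cilia genes. Visceral endoderm markers had mean deviations of -0.26, 0.08 and 0.17 in null and -0.57, 0.87 and -0.29 in wild-type pools 1 to 3, highest in wild-type pool 2. Of 10 measured primitive streak markers, 8 were lower and 2 higher in null in mean, with a median log2 difference of -0.69. The higher ones were Eomes (0.20) and Wnt3 (2.26). Without overlap, 5 of the 10 were lower and 0 higher, against 4.56% and 5.56% of all genes. Neural plate markers and cardiac and lateral mesoderm markers were higher in null in mean for 7 of 8 genes each, with medians of 0.99 and 0.76. Without overlap, 6 and 2 of these 8 were higher and 0 lower. In these lists 0 markers passed the test over all genes, which 0 genes passed in all. The lists were chosen with earlier results of these data known. Node and notochord markers had a median of -0.46, with 5 lower and 2 higher. The part of these tissue markers in the differences of the cilia genes was not tested. Nodal, which is active around the node, had 216 ± 70.0 in null and 479 ± 233 in wild type, without overlap (limma, unadjusted p = 0.0444, adjusted p = 0.950). Nog, an antagonist of BMP signals, went the other way without overlap, at signals of 3.31 to 31.6 (log2 difference 1.94; limma, unadjusted p = 0.0164, adjusted p = 0.832).

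Other cilia genes, from lists of the same pathway, also did not separate the genotypes. Of 88 measured genes of 113 listed symbols, 0 passed the test in either direction (limma), 38 were lower and 50 higher in null, and the median log2 difference was 0.02. At an unadjusted p under 0.05 there were 2, both tektins and both higher in null, against 5.17% of all genes. Tekt5 had 64.2, 27.2 and 50.9 in null and 8.96, 4.86 and 7.61 in wild type, a log2 difference of 2.69 ± 0.41 (SE; limma, unadjusted p = 8.11e-04, adjusted p = 0.368). Tekt3 had 38.5, 27.4 and 14.4 in null and 3.05, 12.7 and 9.27 in wild type (log2 difference 1.80, adjusted p = 0.950). With Tekt4, 3 of the 5 tektin genes thus had no overlap between genotypes and higher null signals, all far below the median gene, while Tekt1 and Tekt2 overlapped. Of all genes, 5.56% were higher in null without overlap. The tektins were set side by side after their values had been seen.

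Rsph9, Enkur, Dand5 and the markers were chosen for naming after their values had been seen. Within these lists, dynein and assembly genes had 4 lower and 15 higher of 19, with a median of 0.27. Radial spoke, central pair, ruler and tektin genes had 7 lower and 9 higher of 16, with a median of 0.08. Further transport genes had 11 lower and 12 higher of 23, with a median of 0.00, and BBSome genes, which sort ciliary membrane cargo, 3 lower and 5 higher of 8, with a median of 0.01. Transition zone genes, which guard the base of the cilium, were split at 7 and 7 of 14, with a median of 0.01, and 8 of 14 listed transition zone genes with a promoter held a full X-box. The 4 measured flow-sensing and left-right genes were all lower in mean, with a median of -0.29, and overlapped between genotypes. Spoke head gene Rsph9 had 105, 21.0 and 43.7 in null and 149, 5.36 and 59.2 in wild type, and Enkur 113, 30.4 and 102 in null and 133, 41.2 and 82.0 in wild type, both with pool 2 lowest and pool 1 highest. They were picked for this order: of the 88 other cilia genes, 18 (20.5%) were lowest in pool 2 in both genotypes, against 15.9% of all genes and 42.4% of the members.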

How the data were processed

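Expression was measured on 6 Affymetrix Mouse Genome 430 2.0 arrays, 3 per genotype, from cRNA of 3 embryos each. The deposited intensity values are linear, and each array's trimmed mean (2% at each end) is 500. The submitters' processing notes name RMA, whose values are on a log2 scale, so how the values were made is not settled. Here, log2 of the deposited signals was taken, 64 control probe sets were left out, and 34945 of 45101 probe sets with 1 gene symbol gave 18193 genes, each by its brightest probe set (932 probe sets had several symbols, 9160 were not listed). Genotypes were compared with limma 3.58.1 in R 4.3.3 (lmFit, eBayes, two-sided, Benjamini-Hochberg adjustment over all genes, threshold 0.05), without a block. The fit was tested on simulated data, with changes placed only in genes above the median signal. It called 10% of changes of 1 log2 unit and 74.2% of changes of 2 log2 units. Dimmer genes were not covered.

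Members and lists were chosen with earlier results of these data known. Array-by-array values are given for the RFX factors, for members with an unadjusted p under 0.05 with or without the block or with no overlap, and for the 4 brightest axonemal and transport members; other genes given this way were chosen after their values were seen. Deviations from the genotype mean of same-numbered arrays correlated at 0.418, 0.440 and 0.270 over 9690 genes with a mean log2 above 7 (0.0727, 0.0537 and 0.0284 over all genes), and pairing by number rests on this alone. Alternatives changed the probe set rule, low-value filter, offset, normalization, centring, block, variance moderation and arrays. The number of arrays limits the precision.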

Additional observations from a re-analysis of the deposited data

How the results depend on the processing

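The count of members past the threshold was 0 under every alternative run, the replicate block included, where the median log2 differences stayed 0.01 (axonemal) and 0.14 (transport). Leaving out 1 array at a time gave axonemal medians of -0.16 to 0.31 (0.31 without wild-type replicate 1) and transport medians of 0.04 to 0.25. Other settings gave -0.09 to 0.17 and 0.04 to 0.15. Centring on the array median moved the median of all genes to -0.10. No member passed the test, so the sign changes below are of differences within the spread, and the cause was not tested. With the mean of all probe sets Rfx2 was 0.31, Rfx3 -0.074 and Hydin -0.23. With quantile normalization Ccdc40 was -0.072 and Drc1 -0.032, and with median centring Ccdc40 was -0.093, Drc1 -0.039 and Ift80 -0.017. Other probe sets gave 0.57 for Ccdc39, -0.93 for Hydin, 0.087 for Ift57, 0.0077 for Kif3a, -0.26 for Kif3b, 0.37, 0.14 and 0.98 for Rfx2, -0.36 for Rfx3 and -1.20 for Spag17. With both arrays of number 1 left out and the replicate block, Tekt1 was 0.12, Dynlrb2 0.45, Drc1 -0.33, Ift57 0.043 and Ift140 -0.046. Without number 2 Rfx2 was 0.10, Tekt1 0.25 and Stk33 -0.51, and without number 3 Ccdc40 was -0.089, Rsph4a -0.74, Pifo -0.55 and Ift81 -0.0022. With 1 array left out, the lowest and highest values straddled 0 for Rfx2 (-0.64 to 0.078), Dnah5 (-0.53 to 0.026), Dnah9 (-0.42 to 0.11), Tekt1 (-0.33 to 0.41), Tekt2 (-2.19 to 0.20), Ccdc39 (-0.77 to 0.11), Ccdc40 (-0.063 to 0.086), Rsph1 (-0.027 to 1.01), Rsph4a (-0.30 to 1.78), Hydin (-0.12 to 0.81), Pifo (-0.46 to 1.54), Dynlrb2 (-0.51 to 0.46), Stk33 (-0.54 to 0.58), Drc1 (-0.23 to 0.28), Ift80 (-0.047 to 0.25), Ift81 (-0.038 to 0.36) and Kif3a (-0.13 to 0.048). Over all settings that left out arrays, 14 members kept their sign and 19 did not. By mean log2 signal, 17 of 19 axonemal members lay below the median gene, and 12 of 19 had a larger SD than the median gene of like signal; both limit what their comparison can show.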
